A study of Mus musculus with 13 samples.

Results

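Zfp genes are the mouse genes whose symbol is Zfp followed by a number, a naming series for zinc finger proteins. The members here were all genes on the array with such a symbol, given by probes annotated with exactly 1 symbol, apart from 2 that were left out. This gave 102 genes with 115 probes, out of 9669 genes named by a single symbol. Of the 102 genes, 89 had 1 probe and 13 had 2 probes, which were averaged. A value on at least 1 of the 13 arrays was present for 99 genes, and 79 genes had enough values to be tested.

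Each array was hybridised with total RNA of a mouse source named NT1 in one dye and of a source named TBV in the other. The series title joins the genotype Sall4 -/- with the contrast of NT1 and TBV. The labels give no cell type, strain, age, clone history or kind of Sall4 allele for either source. There were 4 combinations of sources. NT1p14 was set against TBVp13 on 5 arrays (called the NT1p14 pair below), NT1p12 against TBVp12 on 4 (the NT1p12 pair) and NT1 1 against TBV2 on 2 (the NT1 1 pair). The labels speak of differing passages, so p14, p13 and p12 were read as passages 14, 13 and 12. No passage is given for NT1 1 and TBV2. NT1 carried Cy5 on 7 arrays and TBV carried Cy5 on 6, and both orientations occurred in every pair. Arrays of the same 2 sources were treated as technical repeats, so the pair is the replicate. On 2 further arrays NT1p12 met TBVp13, a combination that shares both sources with the others and is shown as a check only (the check pair). This leaves 3 independent pairs.

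Most Zfp proteins carry zinc fingers of the C2H2 kind, short folds held by a zinc ion that stand in series along the protein and read DNA. Many also carry a KRAB domain, which recruits the corepressor Trim28 and, through it, enzymes that lay down repressive histone marks and DNA methylation, mainly over retroelements and imprinted regions. Other Zfp proteins act on RNA, translation or ubiquitin, so the shared name does not stand for a shared function.

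All values below are log2 ratios of NT1 over TBV, so a value of -1 is a level in NT1 at 50% of that in TBV. The sign rests on reading the deposited values as Cy5 over Cy3, which is not given in the sources used here, so higher and lower could be exchanged for the whole table. In total RNA, fewer cells of a type and less RNA per cell cannot be told apart. Of 1263 member values, 21.5% were whole numbers without decimals, against 19.3% of all 220028 values. The share ran from 1.92% of member values on array 1 of the NT1 1 pair to 50% on array 2 of the check pair. On an array rich in whole numbers, a 0 can thus hide a small ratio of either sign. The probe for Sall4, the gene in the series title, gave -0.28 ± 0.33 (SD, n = 3 pairs) and lay below 0 on 10 of 13 arrays. The place of that probe relative to the mutation is not given in the sources used here, and it is no check on the labels.

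The arrays of a pair ranked the tested Zfp genes alike only in part. Array 3 of the NT1p12 pair stood apart from arrays 1 and 2 of its pair, with Pearson's r of -0.11 and -0.45 over the tested Zfp genes, while arrays 1, 2 and 4 gave 0.48 to 0.55 among themselves. In the NT1p14 pair, array 1 gave 0.03 to 0.11 with the other 4 arrays. The 2 arrays of the NT1 1 pair gave -0.09. Over all features, array 3 of the NT1p12 pair gave -0.09 and -0.24 with arrays 1 and 2. Array 1 of the NT1p14 pair gave 0.03 to 0.11 over all features, and the NT1 1 pair gave 0.07. In the NT1p12 pair, arrays 3 and 4 had TBV in Cy5 and gave 0.19 with each other over the Zfp genes. These correlations are across genes, which share the array and its labelling, and are given as descriptions.

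The median over the 79 tested genes was 0.04 in the NT1p14 pair, 0.01 in the NT1p12 pair and -0.01 in the NT1 1 pair. Over all 14663 features tested (genes, and each probe without a single symbol on its own), the medians were 0.00, 0.03 and 0.00. Over the 43 Zfp genes left when probes with whole numbers were dropped, the median was -0.16 in the NT1p14 pair and 0.09 in the NT1p12 pair, against -0.07 and 0.07 over all such features. The mean of the 3 pairs was above 0 for 41 genes and below 0 for 38. It was smaller than 0.25 in size for 72 of the 79 genes (91.1%), against 89.7% of all features.

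The first comparison asked which Zfp genes differed between NT1 and TBV over the 3 pairs. None passed limma's moderated test at a Benjamini-Hochberg adjusted p of 0.05 (0 of 79 genes), and the share called among all features was 0%. At an unadjusted p under 0.05 there was 1 Zfp gene, Zfp57, and 153 of all features. Only 2 Zfp genes lay below 0 in all 3 pairs, Zfp57 and Zfp106, which is 2.53% of the genes tested against 5.44% of all features. A further 2 lay above 0 in all 3 pairs, Zfp60 and Zfp369, against 9.06% of all features.

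**Figure D1:**
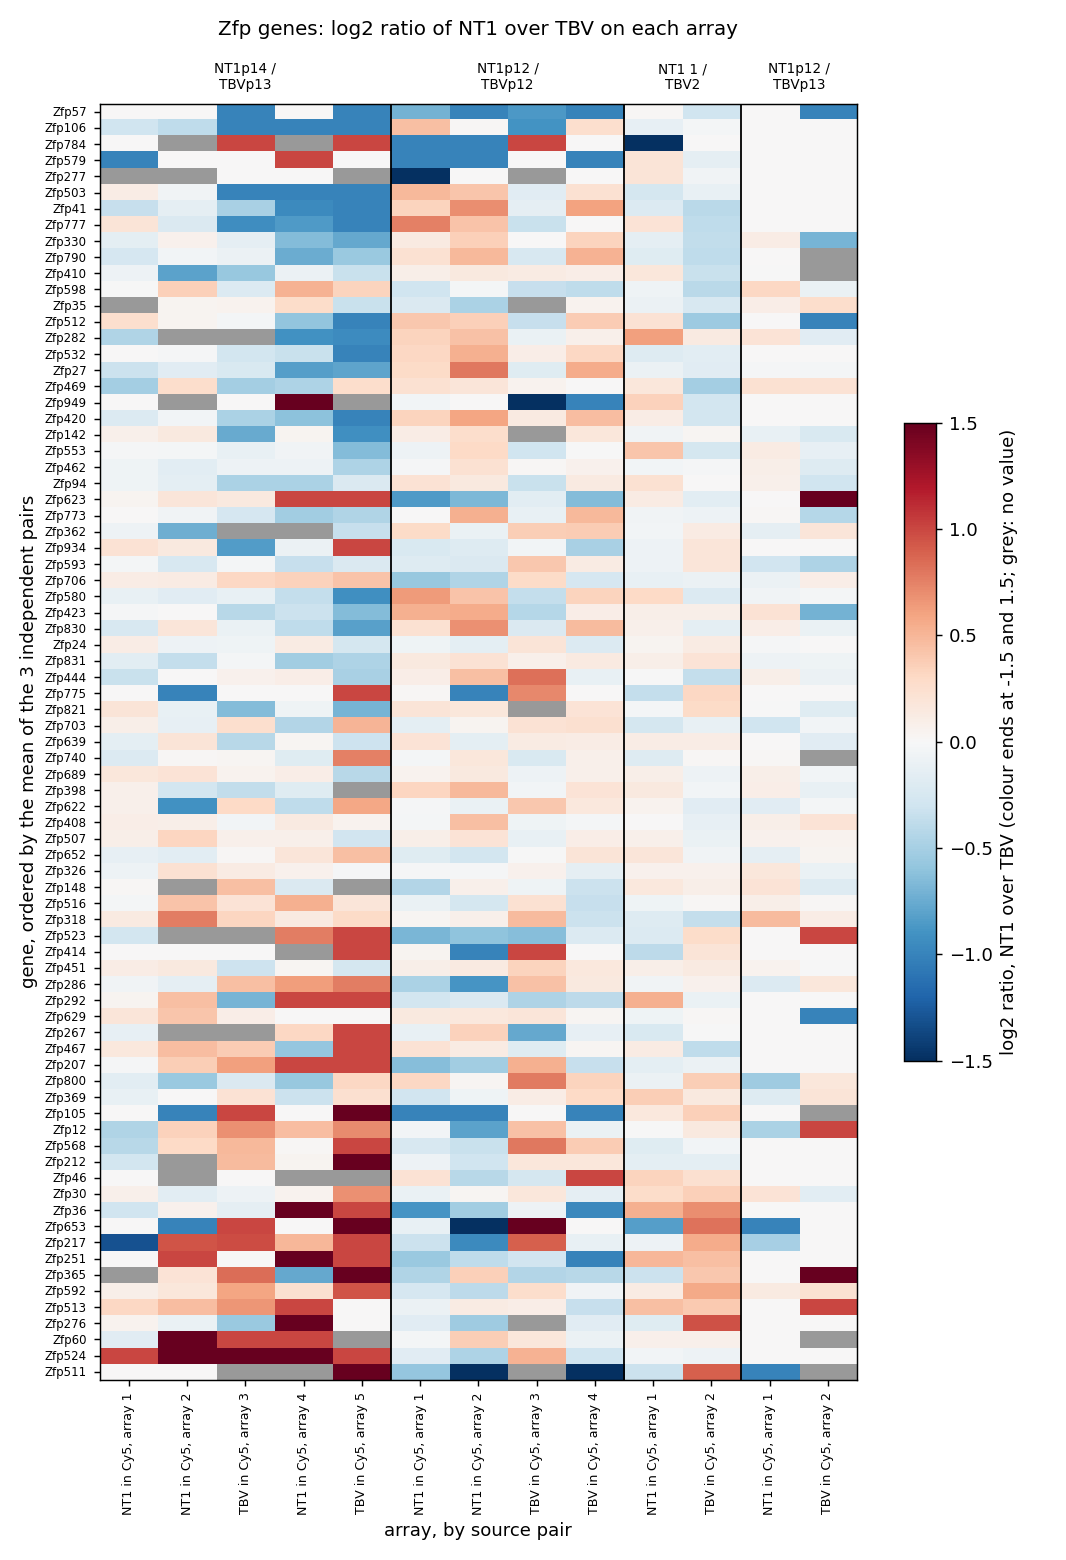
Log2 ratio of NT1 over TBV for the 79 tested Zfp genes (rows, ordered by the mean of the 3 independent pairs) on the 13 arrays (columns, by source pair), with grey where there is no value. Zfp57 at the top is at or below 0 on 12 of 13 arrays, and many other genes are of opposite colour in the NT1p14 pair and the NT1p12 pair.

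Zfp57, the KRAB zinc finger protein that keeps the DNA methylation of imprinted regions in embryonic stem cells and the early embryo, had the lowest mean of the tested Zfp genes. In the NT1p14 pair it read 0 on arrays 1, 2 and 4, which had NT1 in Cy5, and -1 on arrays 3 and 5, which had TBV in Cy5. In the NT1p12 pair it read -0.71 and -1 with NT1 in Cy5 and -0.86 and -1 with TBV in Cy5. In the NT1 1 pair it read 0.02 and -0.30, and in the check pair it read 0 and -1. No array placed Zfp57 above 0.02, and the 4 arrays of the NT1p12 pair were all at -0.71 or lower. In the other 3 pairs, the arrays with TBV in Cy5 were the lower ones and did not overlap the arrays with NT1 in Cy5.

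The dye-balanced pair values of Zfp57 were -0.50, -0.89 and -0.14, with -0.50 in the check pair. Their mean was -0.51 ± 0.38 (SD, n = 3 pairs), with an unadjusted p of 0.033 and an adjusted p of 1.00 in limma. Of its 13 values 9 were whole numbers. The mean of the NT1p14 and NT1p12 pairs, fitted over the 13 arrays with a shared dye term, was -0.68 ± 0.10 (SE) for Zfp57, with an adjusted p of 0.034 in limma. This fit was added after the values were seen and compares 2 pairs of RNA sources against the spread of technical repeats. Its mean leaves out the NT1 1 pair, where Zfp57 was nearest to 0, at -0.14. It called 1 of 79 Zfp genes and 0.191% of all features. The planned fit of the 13 arrays over all pairs, with the source pair as a random block, called 0 of 79 Zfp genes and 0.0205% of all features. Taken pair by pair, the dye effect of Zfp57 was 0.50 in the NT1p14 pair and 0.04 in the NT1p12 pair, which a shared term does not separate. Whether this call holds with a dye term for each pair, or with arrays left out, was not tested.

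Zfp106, which encodes an RNA-binding protein needed by motor neurons and muscle, was low in 1 pair. Its 5 values in the NT1p14 pair were -0.29, -0.38, -1, -1 and -1. In the NT1p12 pair they were 0.45, 0.02, -0.89 and 0.25, and on the other 4 arrays they lay between -0.12 and 0. All 5 arrays of the NT1p14 pair were below 0, while array 3 of the NT1p12 pair was the one low value of a pair otherwise above 0. The mean of the 3 pairs was -0.30 ± 0.42 (SD, n = 3), within the spread between pairs.

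The other genes with the smallest p on the lower side were Zfp579, Zfp277, Zfp503 and Zfp777, with means from -0.24 to -0.17. Each owed its mean to 1 pair. Zfp579 was at -1 on arrays 1, 2 and 4 of the NT1p12 pair, at 0 on array 3, and at 0 on 5 of the other 9 arrays. Zfp277, whose protein binds the Polycomb protein Bmi1, rested on a single value of -3 on array 1 of the NT1p12 pair. Without that array its mean was 0.02 instead of -0.23. Zfp503, a transcriptional repressor that acts in forebrain and limb development, and Zfp777 lay at -0.66 and -0.63 in the NT1p14 pair. In the NT1p12 pair they lay at 0.24 and 0.22.

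On the higher side the smallest p belonged to Zfp60, Zfp513, Zfp276, Zfp592, Zfp524 and Zfp217, with means from 0.21 to 0.47 and no call. Zfp60 read -0.17, 2, 1 and 1 on arrays 1 to 4 of the NT1p14 pair, and between -0.09 and 0.36 on the 7 other arrays with a value. Its pair values were 0.97, 0.10 and 0.08, so the sign was shared and the size was not.

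Zfp513, whose human counterpart is linked to inherited retinal degeneration, was above 0 in 3 of the 4 pairs. Its values were 0.31, 0.46, 0.66, 1 and 0 in the NT1p14 pair, -0.08, 0.13, 0.10 and -0.34 in the NT1p12 pair, and 0.45 and 0.40 in the NT1 1 pair. The check pair added 0 and 1. The 2 arrays of the NT1 1 pair gave nearly the same value in both dye orientations, and both lay above all 4 arrays of the NT1p12 pair. The mean of the 3 pairs was 0.28 ± 0.28 (SD, n = 3), with an unadjusted p of 0.132 and an adjusted p of 1.00 in limma.

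Zfp592, which together with Zfp687 forms the Z3 complex around the chromatin reader Zmynd8, had pair values of 0.47, -0.11 and 0.34. Zfp687 itself lacked the arrays needed for a test and read -0.14 in the NT1p12 pair. Zfp217, which binds corepressor complexes and in embryonic stem cells restrains the RNA methyltransferase Mettl3, averaged 0.21 ± 0.32 (SD, n = 3). Zfp217 read -1.31 on array 1 of the NT1p14 pair and 0.50 to 1 on the other 4 arrays of that pair. Zfp276 averaged 0.38 through 1 value of 7 on array 4 of the same pair, and its mean without that array was -0.01. Zfp511 had the widest spread of all tested Zfp genes, at 0.55 ± 2.33 (SD, n = 3), with 1 value of 6 on array 5 of the NT1p14 pair.

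By known role, no group of Zfp genes held a gene called between NT1 and TBV. Among KRAB genes of imprint and retroelement silencing, 2 of 8 listed genes were tested, Zfp57 and Zfp568. Zfp568, which represses a placental promoter of Igf2, had pair values of 0.36, 0.15 and -0.11, a mean of 0.13 ± 0.23 (SD, n = 3).

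Among genes with roles in embryonic stem cells, 6 of 9 listed genes were tested, 3 with a mean above 0 and 3 below, all smaller than 0.25. Zfp462, a partner of heterochromatin enzymes, lay at -0.18, 0.07 and -0.02. Zfp148, which binds GC-rich promoters, lay at 0.18, -0.19 and 0.12. Zfp207, a protein of kinetochores and the spliceosome, lay at 0.63, -0.24 and -0.12 and is taken up below. Zfp322a of the same list is no member by the naming rule and averaged -0.13.

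Among genes of RNA and translation, 7 of 9 listed genes were tested, 3 above 0 and 4 below. Zfp36 encodes tristetraprolin, which speeds the decay of AU-rich mRNAs. It had the largest swings of the list, at 0.51 in the NT1p14 pair, -0.61 in the NT1p12 pair and 0.61 in the NT1 1 pair. Its 4 arrays of the NT1p12 pair were all below 0, from -0.96 to -0.08, and both arrays of the NT1 1 pair were above 0, at 0.53 and 0.69. In the NT1p14 pair, arrays 4 and 5 read 2 and 1 while the other 3 lay between -0.30 and 0.06. Zfp598, the ubiquitin ligase of collided ribosomes, averaged -0.11 ± 0.25 (SD, n = 3). Zfp326, which links splicing to transcription, averaged 0.03 ± 0.05, and Zfp622, a factor of large ribosomal subunit maturation, 0.02 ± 0.09 (SD, n = 3 each). The value of Zfp326 averages 2 probes that had opposite signs on 12 of 13 arrays, so its small SD does not show a steady level.

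Among genes of development and cell type, 8 of 13 listed genes were tested, 5 above 0 and 3 below. Zfp423, which commits cells to the fat lineage, averaged -0.01 ± 0.27. Zfp516, a regulator of brown fat, averaged 0.04 ± 0.19, and Zfp410, known for its control of Chd4, -0.12 ± 0.25 (SD, n = 3 each). The value of Zfp516 averages 2 probes, which lay at 0.66 and -0.16 in the NT1p14 pair and at -0.48 and 0.24 in the NT1p12 pair. In the ubiquitin and SUMO list 2 of 3 genes were tested, and Zfp451, a SUMO ligase, averaged 0.06 ± 0.14 (SD, n = 3).

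The partners through which KRAB proteins act were read from a list of 20 corepressor and heterochromatin genes, of which 8 were tested and 0 were called between NT1 and TBV. Trim28, the corepressor itself, lay at -0.31, 0.14 and 0.09 in the 3 pairs. Genes named by other zinc finger series (Zbtb, Zscan, Zkscan, Zfhx, Zic, Zeb and Zc3h), 34 tested of 43, had medians of -0.08, 0.05 and 0.04, and 0 were called.

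The Zfp genes also differed between 2 source pairs. The NT1p14 pair and the NT1p12 pair lay on opposite sides of 0 for 61 of 79 Zfp genes (77.2%), against 71.0% of all features. Of these 61 genes, 29 were lower in the NT1p14 pair and higher in the NT1p12 pair, and 32 went the other way. The values of the 2 pairs correlated across the Zfp genes at r = -0.66 (Spearman's rho = -0.70), against -0.49 (rho = -0.58) over all features. Either pair could carry the opposite sign from its labels, and the sources used here do not settle this. With the signs of either pair turned, 61 genes would lie on the same side of 0 and 15 on opposite sides. In that setting 1 of 79 (Zfp57) would be called different between the pairs, against 0.191% of all features. By construction this is the same test as the added mean of these 2 pairs, and not a further call. The count called between NT1 and TBV would still be 0. At an unadjusted p under 0.05 in limma, it would be 2 Zfp genes with the NT1p14 pair turned and 17 with the NT1p12 pair turned. The smallest adjusted p over all features would be 0.64 and 0.40. The unadjusted counts over all features were not taken for these settings. The 2 and the 17 thus have no background and settle nothing about the labels.

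**Figure D2:**
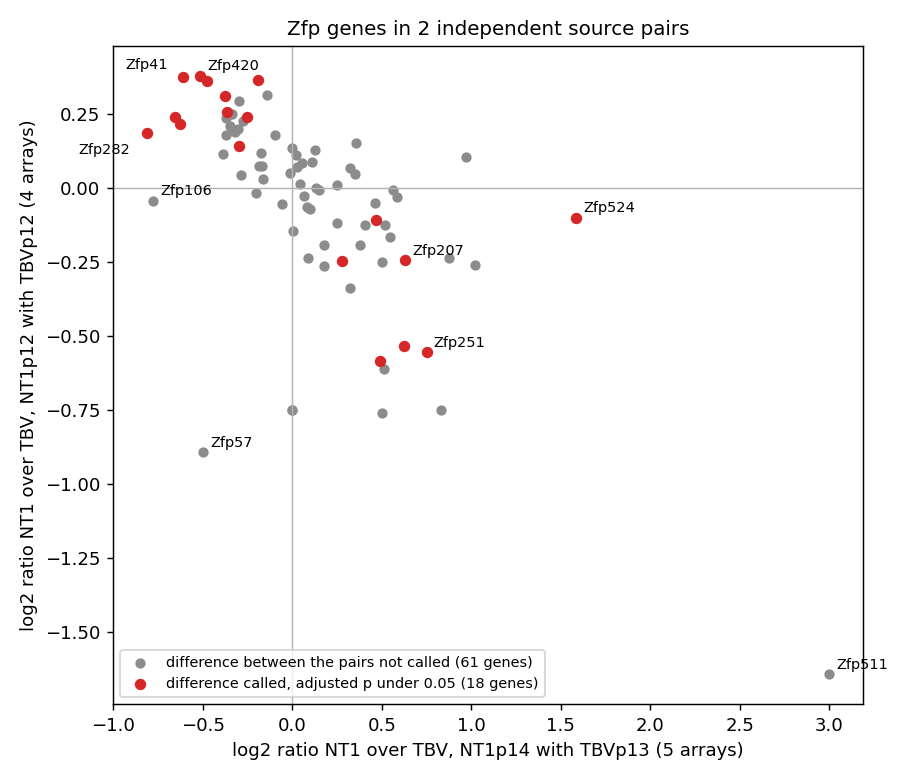
Dye-balanced log2 ratio of NT1 over TBV of each of the 79 tested Zfp genes (points) in the NT1p14 pair (x axis) and the NT1p12 pair (y axis), in red where the difference between the pairs had an adjusted p under 0.05 in limma. Most points lie in the upper left and lower right, and Zfp57, 1 of 4 genes below 0 in both pairs, lies at -0.50 and -0.89.

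The second comparison tested this difference gene by gene, in 1 limma fit over the 13 arrays with a term for each pair and a shared dye term. The difference passed the threshold for 18 of 79 Zfp genes, with a background of 22.8% of all features, and 18 of 79 is also 22.8%. The NT1p14 pair was higher for 7 Zfp genes (8.86%, background 11.5%) and lower for 11 (13.9%, background 11.3%). With probes that held whole numbers dropped, 16 of 43 Zfp genes (37.2%) were called, against 24.7% of all such features. Arrays of the same sources are technical repeats, so these p-values compare particular RNA preparations and say nothing of passages in general. A dye term for each pair left 0 Zfp calls and 0.123% of all features. Leaving out array 1, 2 or 4 of the NT1p12 pair left 0 Zfp calls each time, with 0%, 0% and 0.921% of all features. Leaving out array 4 or 5 of the NT1p14 pair left 9 and 6, with 14.8% and 8.95% of all features. Without array 3 of the NT1p12 pair, which stood apart, there were 23 calls, 16 of them shared with the 18, and 25.3% of all features were called.

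Lower in the NT1p14 pair were 6 genes with a difference of -0.83 or beyond: Zfp282, Zfp41, Zfp420, Zfp503, Zfp27 and Zfp777. Zfp282 read -0.45, -0.91 and -0.94 on the 3 arrays with a value in the NT1p14 pair. In the NT1p12 pair it read 0.33, 0.44, -0.10 and 0.07, and in the NT1 1 pair 0.61 and 0.13. The 3 arrays of the NT1p14 pair lay below all others, and the difference was -1.02 ± 0.16 (SE), with an adjusted p of 0.013 in limma.

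Zfp41 read -0.34, -0.13, -0.48, -0.96 and -1 in the NT1p14 pair and 0.34, 0.70, -0.13 and 0.60 in the NT1p12 pair. The groups met only at -0.13, where array 3 of the NT1p12 pair was again the low one. The difference was -0.98 ± 0.21 (SE), adjusted p = 0.019 in limma. The other 5 genes that were lower, beyond these 6, were Zfp532, Zfp580, Zfp800, Zfp398 and Zfp831, with differences from -0.66 to -0.45 and adjusted p-values from 0.029 to 0.046 in limma. Zfp800 was no longer called without array 3 of the NT1p12 pair.

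Zfp420 and Zfp27 are KRAB zinc finger genes that stand next to each other on mouse chromosome 7, and the human counterpart of Zfp420 is known as a restrainer of p53. Zfp420 read -0.21, -0.04, -0.48, -0.62 and -1 in the NT1p14 pair, and 0.33, 0.59, 0.13 and 0.47 in the NT1p12 pair. Zfp27 read -0.32, -0.17, -0.22, -0.83 and -0.79 in the first pair, and 0.29, 0.79, -0.18 and 0.55 in the second. All 9 values of Zfp420 split by pair without overlap. Zfp27 overlapped at array 3 of the NT1p12 pair, and its 13 values held no whole number.

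Both genes gave nearly the same pair values: -0.51 and -0.47 in the NT1p14 pair, 0.38 and 0.36 in the NT1p12 pair, and -0.09 and -0.13 in the NT1 1 pair. Their differences between the pairs were -0.88 ± 0.18 and -0.85 ± 0.21 (SE), with adjusted p-values of 0.015 and 0.025 in limma. Whether their probes read each other's transcripts was not tested. Of 10 pairs of adjacent member genes, 6 had both genes tested. Of these 6, 2 had both genes called, Zfp420 with Zfp27 and Zfp398 with Zfp282. Singly, 22.8% of all features were called, and adjacent genes outside the members were not counted. Zfp398 and Zfp282 were both lower in the NT1p14 pair, at -0.25 and -0.81, and above 0 in the NT1p12 pair, at 0.24 and 0.19. The other tested neighbours lay on opposite sides of 0 in the NT1p14 pair. Zfp282 and its other neighbour Zfp212 were at -0.81 and 0.56, and Zfp784 and Zfp580 at 0.50 and -0.36. Zfp30 and Zfp790 were at 0.15 and -0.33, and Zfp35 and Zfp24 at 0.005 and -0.056.

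Since Zfp420 and Zfp27 had such close values, their promoters are shown, from RefSeq on GRCm38.p6, as 250 bases before to 50 bases after a listed start. Capitals mark CCAAT boxes (CCAAT, or ATTGG when read on the other strand) and the hexamer TGCCGC (or GCGGCA), the core of the site that Zfp57 protein binds when its CpG is methylated. Zfp420 lies at chr7:29859762-29860061 on the + strand, and the start of Zfp27 with the most CpG lies at chr7:29906055-29906354 on the - strand.
Zfp420: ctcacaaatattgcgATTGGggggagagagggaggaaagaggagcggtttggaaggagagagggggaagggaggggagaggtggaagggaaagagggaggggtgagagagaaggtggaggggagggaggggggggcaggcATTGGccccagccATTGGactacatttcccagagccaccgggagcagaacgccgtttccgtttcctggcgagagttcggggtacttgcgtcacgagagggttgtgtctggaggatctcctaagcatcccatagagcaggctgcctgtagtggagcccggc
Zfp27: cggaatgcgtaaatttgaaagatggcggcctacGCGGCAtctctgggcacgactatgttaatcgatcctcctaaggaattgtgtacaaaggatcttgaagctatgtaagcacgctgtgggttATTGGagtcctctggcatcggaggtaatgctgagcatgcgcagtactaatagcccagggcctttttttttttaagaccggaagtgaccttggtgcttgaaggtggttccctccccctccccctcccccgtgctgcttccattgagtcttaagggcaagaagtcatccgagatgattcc
The Zfp420 window held 3 CCAAT boxes, 11 CpG and 60.7% G and C, and the Zfp27 window held 1 CCAAT box, 1 hexamer, 13 CpG and 50.7% G and C. Such a match is a description of letters, not a site.

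Over all Zfp genes with an entry, 78 genes had 98 promoters of the same length, which were richer in CpG than promoters at large. Their median was 19 CpG and 61.0% G and C, against 7 CpG and 52.7% over 32851 promoters of 27025 genes. On both strands, the GC box GGGCGG was present in 56.1% of Zfp promoters and 35.7% of all promoters. TGCCGC was present in 20.4% and 11.6%, CCAAT in 32.7% and 37.4%, and TATAAA in 9.18% and 13.6%. No motif overlap was removed.

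Higher in the NT1p14 pair were Zfp524, Zfp251, Zfp523, Zfp623, Zfp207, Zfp592 and Zfp706. Zfp524 read 1, 2, 2, 2 and 1 in the NT1p14 pair, all whole numbers, and -0.17, -0.46, 0.52 and -0.30 in the NT1p12 pair. On the other 4 arrays it lay between -0.08 and 0, so its 5 high arrays lay above all 8 others. The difference was 1.71 ± 0.29 (SE), with an adjusted p of 0.012 in limma.

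Zfp251 read 0, 1, 0, 2 and 1 in the NT1p14 pair and -0.55, -0.39, -0.28 and -1 in the NT1p12 pair, without overlap. The difference was 1.33 ± 0.36 (SE), adjusted p = 0.028 in limma. Zfp523, a close relative of the promoter factor Zfp143, read -0.27, 0.77 and 1 on 3 arrays of the first pair and -0.69, -0.61, -0.64 and -0.20 in the second. Its groups overlapped by 1 array, and the difference was 1.13 ± 0.27 (SE), adjusted p = 0.026 in limma. Zfp623 had a difference of 1.10 and was no longer called without array 3 of the NT1p12 pair.

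Zfp207 read -0.02, 0.37, 0.61, 1 and 1 in the NT1p14 pair and -0.63, -0.52, 0.53 and -0.35 in the NT1p12 pair. Only array 3 of the second pair reached into the range of the first. The difference was 0.87 ± 0.24 (SE), adjusted p = 0.031 in limma, and both probes of the gene showed it, at 0.67 and 0.59 in the first pair and -0.22 and -0.27 in the second. Zfp592 read 0.09 to 0.95 in the NT1p14 pair, with a median of 0.24, and -0.25, -0.40, 0.26 and -0.05 in the NT1p12 pair. Its difference was 0.56 ± 0.14 (SE), adjusted p = 0.025 in limma. Zfp706, a small zinc finger protein that helps stem cells to leave pluripotency, differed by 0.54 ± 0.15 (SE), adjusted p = 0.032 in limma. That value came from 1 of its 2 probes, which read 0.59 and -0.62 in the 2 pairs, while the other read -0.03 and 0.13.

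Other gene lists moved with the same difference. Of 15 tested fibroblast genes, 8 were higher in the NT1p14 pair and 0 lower, and their median was 0.46 in the NT1p14 pair, -0.28 in the NT1p12 pair and -0.41 in the NT1 1 pair. Their values ranged from -0.45 to 1.17 in the first of these pairs and from -0.82 to 0.11 in the second. Of 37 tested ribosomal protein genes, 19 were higher and 2 lower, with medians of 0.42, -0.48 and 0.10. These shares stand beside a background of 11.5% higher and 11.3% lower over all features, and beside Zfp medians of 0.04 and 0.01. No feature was called without array 1 or without array 2 of the NT1p12 pair, so the list calls were also lost there. The part of these lists in the Zfp values was not tested. Of the 8 tested corepressor genes, 3 were higher (Uhrf1, Pphln1 and Mphosph8) and 1 was lower (Daxx). Of the 34 other zinc finger genes, 3 were higher and 3 lower.

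**Figure D3:**
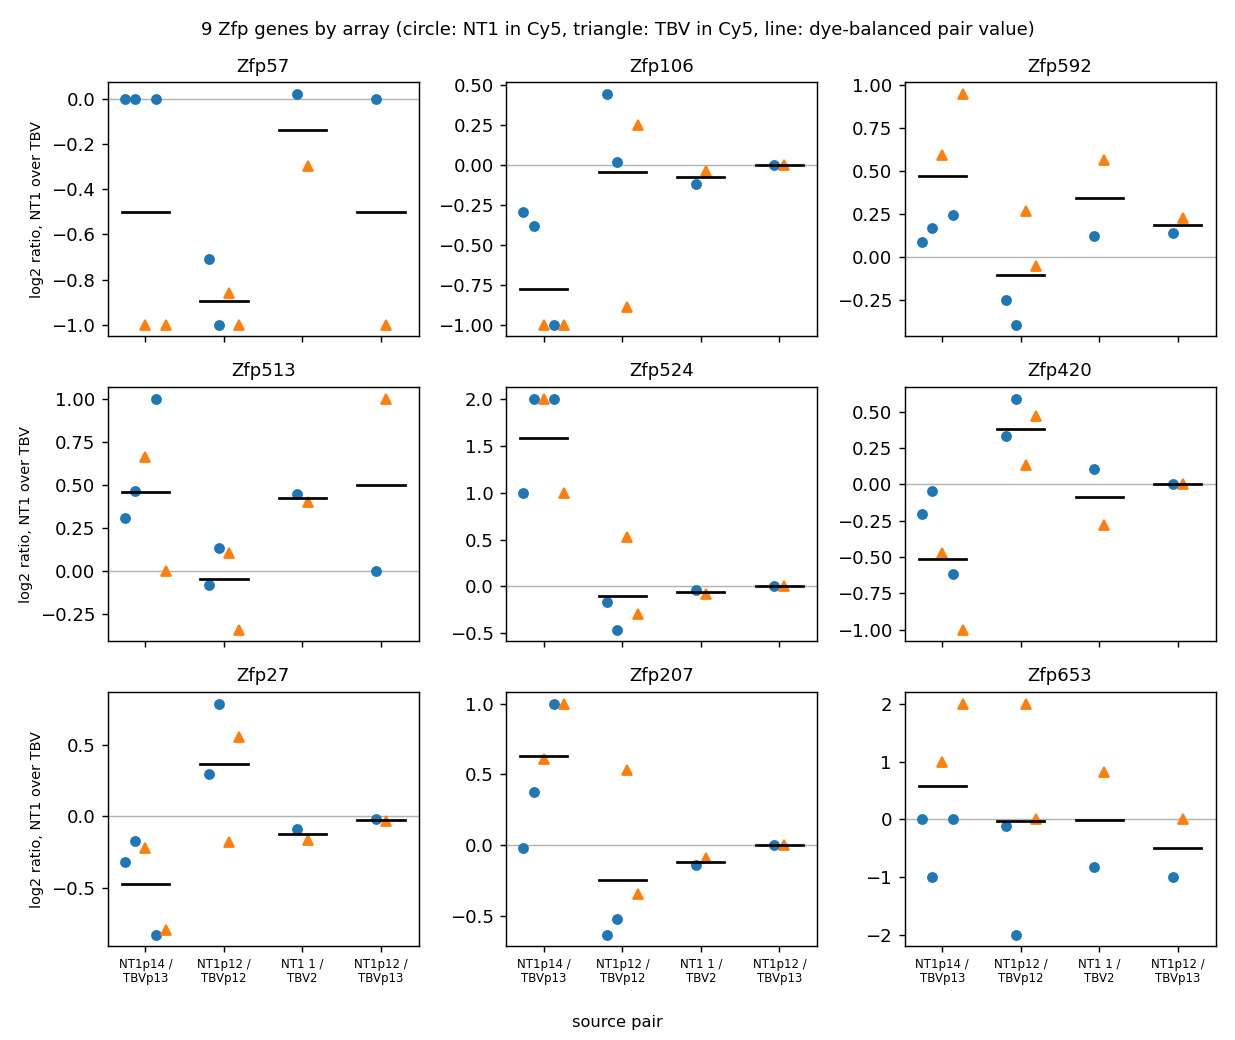
Log2 ratio of NT1 over TBV of 9 Zfp genes on every array, by source pair, with circles for NT1 in Cy5, triangles for TBV in Cy5 and a line at the dye-balanced pair value. Zfp420 and Zfp27 show the same shape, Zfp524 is high in the NT1p14 pair only, and Zfp653 is split by dye in each pair.

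The third comparison asked how far single Zfp genes depended on the dye. The dye effect is positive where a gene read higher in the source labelled with Cy5, whichever source that was. It passed the threshold for 1 of 79 Zfp genes, Zfp653, with a background of 3.4% of all features. At an unadjusted p under 0.05 there were 22 Zfp genes (27.8%), against 26.7% of all features. The dye effect was larger than the mean NT1 over TBV ratio for 53 of 79 Zfp genes (67.1%), against 63.0% of all features. Its median size was 0.13, beside 0.08 for the NT1 over TBV mean. Between arrays with NT1 in Cy5 and arrays with TBV in Cy5, 52 Zfp genes changed their side of 0 and 27 did not. The same count was not taken over all features, so it cannot be read as a trait of the Zfp genes.

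Zfp653, which encodes a corepressor of the nuclear receptor SF-1, showed this most plainly. With NT1 in Cy5 it read 0, -1 and 0 in the NT1p14 pair, -0.12 and -2 in the NT1p12 pair, -0.83 in the NT1 1 pair and -1 in the check pair. With TBV in Cy5 it read 1 and 2, 2 and 0, 0.81, and 0 in the same pairs. All 7 values of the first orientation were at or below 0 and all 6 of the second were at or above 0. The dye effect was -0.87 ± 0.20 (SE), with an adjusted p of 0.045 in limma, and the dye-balanced pair values were 0.58, -0.03 and -0.01. Of its 13 values 10 were whole numbers. The count of dye calls fell to 0 when any 1 array other than array 4 of the NT1p12 pair was left out. It was 4 with scaled arrays, where 6.38% of all features were called.

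The next genes that read lower in Cy5 were Zfp784 (-0.59), Zfp592 (-0.22), Zfp800 (-0.24), Zfp568 (-0.29) and Zfp286 (-0.28), with adjusted p-values from 0.052 to 0.085 in limma. On the side that read higher in Cy5 were Zfp57 (0.30), Zfp423 (0.26), Zfp777 (0.29), Zfp282 (0.19), Zfp553 (0.18) and Zfp512 (0.27), with adjusted p-values from 0.055 to 0.134. Zfp592 averaged -0.01 over the arrays with NT1 in Cy5 and 0.48 over those with TBV in Cy5. Zfp57 averaged -0.28 and -0.74. The -0.28 came from the NT1p12 pair, since the other 5 arrays with NT1 in Cy5 read 0 or 0.02. Zfp777 averaged 0.17 and -0.50, and its sign depended on the orientation.

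**Figure D4:**
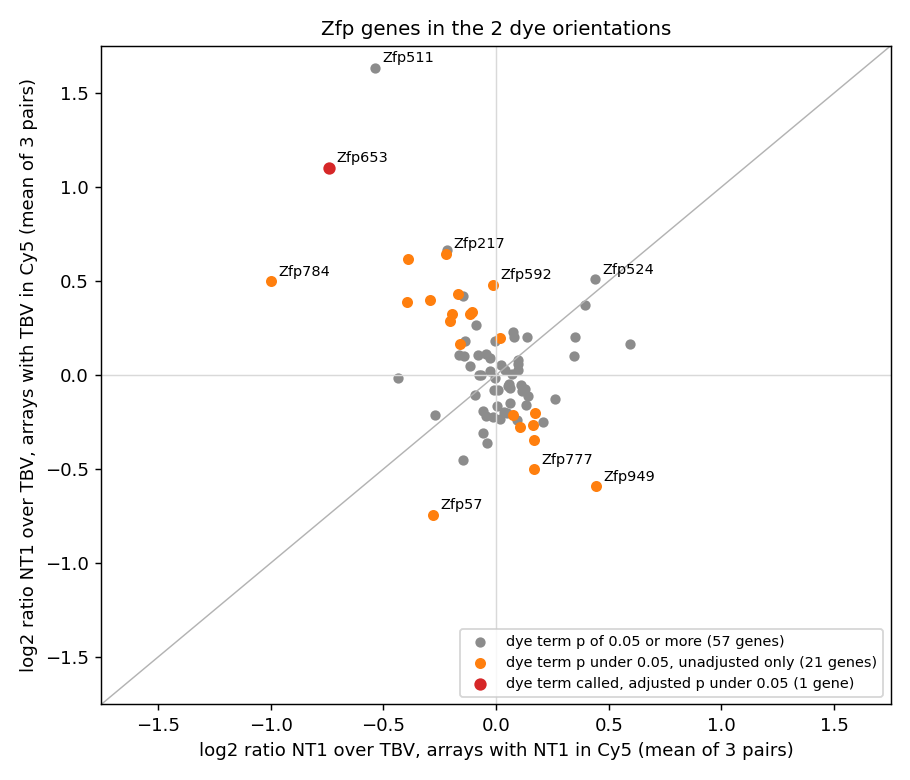
Log2 ratio of NT1 over TBV of the 79 tested Zfp genes (points) on arrays with NT1 in Cy5 (x axis) and with TBV in Cy5 (y axis), each the mean of 3 pairs, with the diagonal where both are equal. Most points lie in the upper left and lower right, and Zfp57 is at -0.28 and -0.74.

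For the 13 genes with 2 probes, the probes differed by a mean size of 0.14 to 2.34 on the arrays that held both, with a median over the genes of 0.43. The largest gap was in Zfp365, a gene of DNA damage response, where 1 probe had values on 7 arrays, all of them whole numbers, and the other on 12. Zfp217 followed with 0.79, Zfp629 with 0.76, Zfp516 with 0.67 and Zfp706 with 0.60. The probes of Zfp629 had opposite signs on 11 of 12 arrays, with means of 0.24 and -0.08 over the 3 pairs. Those of Zfp326 had opposite signs on 12 of 13. Tested on their own, they had dye effects of -0.21 and 0.26, with adjusted p-values of 0.071 and 0.069 in limma. Their dye-balanced values were 0.08 and 0.04 in the NT1p14 pair and 0.07 and 0.07 in the NT1 1 pair. In the NT1p12 pair they were 0.13 and -0.19. The closest were Zfp777 at 0.22, Zfp207 at 0.16 and Zfp451 at 0.14. The averages of Zfp365, Zfp217 and Zfp148 join probes that were present on different arrays. Cross-hybridisation between zinc finger genes, whose finger repeats resemble each other, was not tested.

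**Figure D5:**
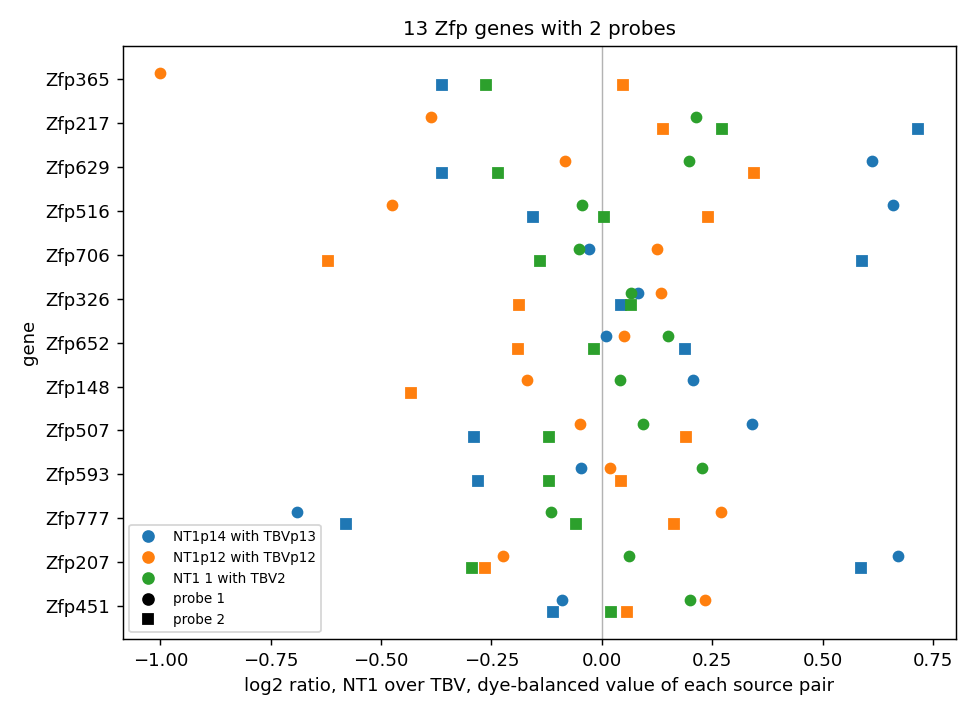
Dye-balanced log2 ratio of NT1 over TBV for each probe (circle and square) of the 13 Zfp genes with 2 probes, in the 3 independent source pairs (colours), ordered by the size of the probe difference. The probes of Zfp207 and Zfp777 lie close together, while those of Zfp629 and Zfp516 lie on opposite sides of 0 in the NT1p14 pair and in the NT1p12 pair.

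The 23 Zfp genes without a test lacked a value in at least 1 orientation of 1 independent pair. Zfp61, Zfp628 and Zfp954 had no value, 4 genes had 1 to 3 values and 16 had 6 to 10. In the NT1p12 pair, 17 of the 23 had a pair value, 14 below 0 and 3 above. In the NT1p14 pair, 5 had one, all above 0: Zfp157 at 1.5, Zfp219, a partner of stem cell transcription factors, at 0.76, Zfp13 at 0.63, and Zfp664 and Zfp692 at 0.50 each. The same 5 genes lay at -0.32, -0.59, -0.41, -1.32 and -0.39 in the NT1p12 pair, opposite in sign. Several of these values rest on few arrays and on whole numbers. In the NT1p14 pair, Zfp157 had 1 array per orientation, at 2 and 1, and so had Zfp664 and Zfp692, each at 0 and 1. The same counts were not taken over all features without a test.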

How the data were processed

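The authors deposited 1 signed value per probe and array, used here as log2 ratios, for 20205 probes, of which 437 held no value. The log base, numerator and normalisation are not given in the sources used here. Probes were named through a platform annotation (11723 with 1 symbol, 806 with several, 7676 with none). All 102 members matched the RefSeq gene table on GRCm38.p6 by Entrez ID. Values per array numbered 14314 to 18381, and no signal intensities were used, so the number of arrays limits the precision.

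Each array was centred on its median, and values of arrays with TBV in Cy5 were multiplied by -1. A pair value is the average of the means of both orientations. Features were single-symbol genes (probes averaged) and all other probes one by one, 18151 in all. The 14663 with both orientations in all 3 independent pairs were tested, two-sided, with limma 3.58.1 in R 4.3.3 and Benjamini-Hochberg adjustment over all of them. Pair values were tested against 0. The dye effect and the difference between 2 pairs came from 1 model of the 13 arrays. The fits were tested on simulated data. Figures used matplotlib 3.10.9.

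Members, gene lists and tests were chosen with earlier results of these data known. Named genes were up to 12 calls per fit and direction, the 6 smallest p per direction, up to 4 genes per list and the 5 genes whose 2 probes differed most. Others named were chosen after their values were seen. Protein sequences were not used here. Alternatives covered centring, scaling, missing values, whole numbers, probe averaging, dye orientation, pair signs and leaving out arrays or pairs.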

Additional observations from a re-analysis of the deposited data

Results flagged for a closer look

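Over 80 sets of 4 or 5 array values of a named Zfp gene within a source pair, 7 held 1 array far from the rest. Chance alone can mark such sets too, at a rate that was not measured. In the NT1p14 pair, Zfp276 read 7 on array 4, where the other arrays lay between -0.56 and 0.05. Zfp217 read -1.31 on array 1, where the others lay between 0.50 and 1. On array 5, Zfp553 read -0.65 and Zfp462 read -0.47, where the others lay at -0.11 to -0.01 and at -0.16 to -0.06. In the NT1p12 pair, Zfp579 read 0 on array 3, where the others were at -1. Zfp512 read -0.34 on array 3, where the others lay between 0.36 and 0.40. Zfp365 read 0.35 on array 2, where the others lay between -0.45 and -0.41. Array 3 of the NT1p12 pair and array 5 of the NT1p14 pair each held 2 of these 7 values. What set them apart was not tested.

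The difference between the NT1p14 pair and the NT1p12 pair was called in limma for 18 Zfp genes. It was below 0 for Zfp282 (-1.02), Zfp41 (-0.98), Zfp420 (-0.88), Zfp503 (-0.87), Zfp27 (-0.85), Zfp777 (-0.83), Zfp532 (-0.66), Zfp580 (-0.63), Zfp800 (-0.56), Zfp398 (-0.49) and Zfp831 (-0.45). It was above 0 for Zfp706 (0.54), Zfp592 (0.56), Zfp207 (0.87), Zfp623 (1.10), Zfp523 (1.13), Zfp251 (1.33) and Zfp524 (1.71). The share of Zfp genes called, 22.8%, was that of all features. Over genes without whole numbers the shares were 37.2% and 24.7%.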

How the results depend on the processing

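The test of the 3 pair values called 0 Zfp genes between NT1 and TBV under every alternative listed for it, while the added mean of 2 pairs called Zfp57. The dye count of 1 became 4 with scaled arrays, 6 of 43 genes without whole numbers, 4 of 56 with a value on all 13 arrays, 0 from 3 pair values, and 0 to 1 with 1 array left out. The share of all features called moved too, to 6.38%, 16.3%, 8.16%, 0% and 0% to 2.95%. The 18 pair differences became 7 with scaled arrays, 0 with a dye term for each pair, 0 to 26 with 1 array left out, and 1 with the signs of either pair turned, an alternative added after seeing the data. With signs turned, the test is the same as that of the added mean of 2 pairs, and the 1 gene is again Zfp57. All features moved to 13.2%, 0.123%, 0% to 29.0% and 0.191%. Over genes without whole numbers the pair difference was called for 16 of 43 Zfp genes (37.2%), 3 higher and 13 lower, against 24.7% of all such features. The split by direction was not taken over all such features. The NT1p14 pair's median was -0.163 over genes without whole numbers. The NT1p12 pair's median was 0.0869 there, 0.0468 with every probe on its own, 0.0446 with a value on all 13 arrays, -0.0182 and 0.0409 with NT1 or TBV in Cy5 only, and 0.0234 to 0.0586 with 1 array left out. The NT1 1 pair's median was 0.0078 with scaled arrays, and that of the check pair was 0.0004 over genes without whole numbers.

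Reversed NT1 over TBV means were as follows. With 1 array left out, Zfp276 ranged from -0.0097 to 0.58 and Zfp277 from -0.48 to 0.0238. Without the NT1p14 pair they were -0.0806 for Zfp524, 0.0261 for Zfp503 and 0.0644 for Zfp777. Without the NT1p12 pair they were 0.013 for Zfp579 and 0.0357 for Zfp277. With NT1 in Cy5 only they were -0.0117 for Zfp592, -0.22 for Zfp217 and 0.17 for Zfp777. With the signs of the NT1p14 pair turned they were -0.26 for Zfp60, -0.0294 for Zfp513, -0.30 for Zfp276, -0.0778 for Zfp592, -0.58 for Zfp524, -0.13 for Zfp217, 0.22 for Zfp106, 0.24 for Zfp503 and 0.25 for Zfp777. With the signs of the NT1p12 pair turned they were 0.0844 for Zfp57, 0.26 for Zfp579 and 0.27 for Zfp277. The pair difference of Zfp706 was -0.13 on its probe without whole numbers. Where a setting only removes arrays, pairs or rounded values, that construction is the change, and for the others the cause was not tested. The number of independent pairs and the lost decimals limit what small ratios can show.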
